A study of Mus musculus with 8 samples.

Results

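Collagen genes encode the chains of the triple-helical proteins that make up much of the extracellular matrix. They were taken here as the protein-coding genes of the deposited table whose symbol reads Col, a number, a and a number. The rule found 1284 accessible regions listed under 42 genes, of 489637 regions and 27552 genes in all. The assay was ATAC-seq, which reads open chromatin from the places where a transposase can cut, on nuclei of the gastrocnemius, a calf muscle, taken from mice 6 months old. All 8 libraries came from the genotype Cre+:iMSBmal1 fl/fl, so that the controls carried the Cre transgene and the floxed alleles as well. The 4 Vehicle libraries had received vehicle, and the 4 libraries labelled iMSBmal1KO had received Tamoxifen. Each sample used 2 gastrocnemius muscles and 50000 nuclei. The effect of Tamoxifen and that of the knockout cannot be told apart in this design. The labels do not say whether the libraries of a group came from separate animals, so p-values measure the spread between these samples, which may be technical. The study's title speaks of loss of Bmal1 in skeletal muscle, the labels do not name the promoter that drives Cre, and the nuclei came from whole muscle with all its cell types.

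Collagens fall into classes by what they build. Fibrillar collagens (types I, III and V and their relatives) form the banded fibres of tendon and of the connective tissue around muscle fibres, and in muscle are made mainly by fibroblast-like cells. Basement membrane collagens (type IV) form the sheet-like network around each muscle fibre and capillary. Beaded filament collagen (type VI) links the fibre surface to the surrounding matrix, and the remaining classes decorate fibrils, span membranes or anchor epithelia. In bulk nuclei, a lower share of nuclei of a cell type and a lower accessibility per nucleus cannot be told apart.

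Depth, estimated from the smallest step in each column, ran from 4.31 to 29.5 M read equivalents, and Vehicle replicate 4 was the shallowest. It also had 16.5% of its signal on the mitochondrial genome, against 1.11% to 5.51% in the other libraries, and its highest correlation with any library was 0.847, where those of the others ran from 0.925 to 0.941. In that library 1 read was worth 3.13 units of signal and 24.9% of regions were listed at 0. The targeted gene, listed under its older symbol Arntl, had a summed signal of 2688, 2248, 2557 and 1942 in Vehicle replicates 1 to 4 and of 3023, 3421, 3154 and 3315 in the iMSBmal1KO replicates. Its log2 difference was 0.46 ± 0.14 (SE), with an adjusted p of 0.374 (limma). Of its 37 tested regions 1 was called, in a 5' UTR exon (chr7:113250869-113251387), with 187 ± 44.6 in Vehicle and 390 ± 37.6 in iMSBmal1KO, a log2 difference of 1.08 ± 0.21 and an adjusted p of 0.0468 (limma). The labels do not say which part of Arntl is floxed, so these values do not check the deletion.

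Promoter sequences from RefSeq (GRCm38.p6) matched 34 of the 42 genes, with 37 entries that each span 250 bases before and 50 bases after a start. The 6 stretches of 150 bases that end just before the outermost annotated start are shown with every CpG dinucleotide in capitals. They set promoter entries with a region over them beside entries without one. Col16a1 (chr4:130047667-130047816, plus strand), Col6a2 (chr10:76623631-76623780, minus strand) and Col5a3 (chr9:20815118-20815267, minus strand) had regions over their promoters. Col4a6 (chrX:141474096-141474245, minus strand), Col24a1 (chr3:145292322-145292471, plus strand) and Col9a1 (chr1:24177439-24177588, plus strand) had none. Within 1000 bp of their listed starts Col24a1 still had 15.6 ± 4.52 and Col9a1 99.2 ± 27.5 in Vehicle, and Col4a6 had no region. Regions over a promoter were counted whatever gene they were listed under.
Col16a1: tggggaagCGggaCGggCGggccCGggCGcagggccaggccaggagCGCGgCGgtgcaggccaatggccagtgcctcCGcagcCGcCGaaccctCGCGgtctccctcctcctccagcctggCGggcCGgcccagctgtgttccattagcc
Col6a2: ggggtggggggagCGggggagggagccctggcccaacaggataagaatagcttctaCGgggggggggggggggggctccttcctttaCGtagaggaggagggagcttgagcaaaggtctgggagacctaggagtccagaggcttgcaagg
Col5a3: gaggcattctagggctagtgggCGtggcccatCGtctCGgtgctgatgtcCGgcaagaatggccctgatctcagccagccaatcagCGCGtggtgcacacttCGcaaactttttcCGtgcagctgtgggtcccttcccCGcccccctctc
Col4a6: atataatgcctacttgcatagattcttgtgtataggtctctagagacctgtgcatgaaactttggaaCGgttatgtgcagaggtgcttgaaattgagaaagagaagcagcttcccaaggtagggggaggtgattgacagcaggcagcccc
Col24a1: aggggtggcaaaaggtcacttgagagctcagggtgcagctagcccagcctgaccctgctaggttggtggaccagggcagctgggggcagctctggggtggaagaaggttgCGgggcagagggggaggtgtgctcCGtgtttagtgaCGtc
Col9a1: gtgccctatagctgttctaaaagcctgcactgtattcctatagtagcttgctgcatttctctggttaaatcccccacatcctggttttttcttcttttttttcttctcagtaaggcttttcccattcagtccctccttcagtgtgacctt
The stretches of Col16a1, Col6a2 and Col5a3 hold 15, 3 and 9 CpGs, and those of Col4a6, Col24a1 and Col9a1 hold 1, 3 and 0. Across the 37 promoters the CpG count had a median of 16 (0 to 37) in the 25 that a region overlapped and of 5 (0 to 12) in the 12 without one. The median of all 32851 RefSeq promoters was 7. Over the 37 promoters, some of which belong to 1 gene or share a region, Spearman's rho between the CpG count and the mean Vehicle signal over the promoter was 0.67, given as a description. The outer of the 2 promoter entries of Col6a2 had 6 CpGs and a signal of 219. Most of that signal, 207, was in the region chr10:76623167-76623656, which also lay over the inner entry with 16 CpGs. The GC box GGGCGG, searched on both strands, occurred in 62.2% of collagen promoters and in 35.7% of all promoters. The E-box CACGTG, the palindromic motif bound by dimers that contain Bmal1, occurred in 0 of the 37 and in 7.15% of all, which says only that these letters are not in these windows. CCAAT occurred in 35.1% (37.4% of all) and TATAAA in 10.8% (13.6% of all). Col3a1 was among the 4 promoters with TATAAA and held no CpG.

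**Figure D1:**
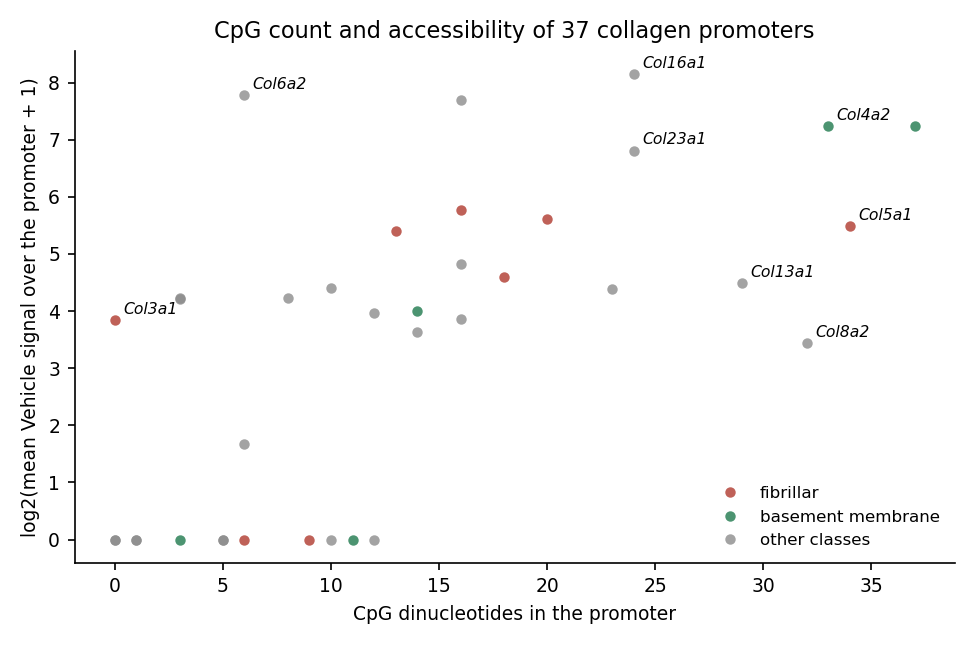
CpG dinucleotides in each of 37 RefSeq promoters of 34 collagen genes (x axis) against log2 of the mean Vehicle signal, plus 1, of the regions over that promoter (y axis), with 1 point a promoter, coloured by class. The 12 promoters without a region lie at 0 and have at most 12 CpGs.

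Levels were compared between genes in windows of equal length, 1000 bp on each side of the RefSeq gene start, with every region in the window counted whatever gene it was listed under. This definition was added after values were seen. Collagen starts were weakly accessible: 28 of 42 genes had any region in the window, 14 (33.3%) had none, against 21.2% of the 16768 protein-coding genes with such a window, and 7 of 42 were above the median window of all these genes, a signal of 113. The strongest start window was that of Col11a2, which encodes a fibrillar type XI chain, at 582 ± 82.9 (SD, n = 4), higher than 84.5% of protein-coding windows. A single region in its intron 1, chr17:34039897-34040433, 425 bp from a listed start, held 432 ± 65.1. Over the RefSeq promoter of Col11a2 the signal was 53.7, below the 283 over that of Col16a1. In the windows Col16a1, a collagen that associates with fibrils, followed at 290 ± 65.0 and Col6a2, a type VI chain, at 251 ± 64.1. These last 2 did not differ beyond their spread. The Col16a1 window also held regions listed under Gm12963. Regions listed under Col16a1 itself within 1000 bp of its listed starts summed to 25.4 ± 3.97 in Vehicle. Col4a1 and Col4a2 stood at 191 ± 17.8 and 178 ± 24.0, and Col23a1, a membrane-spanning collagen, at 152 ± 42.6.

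**Figure D2:**
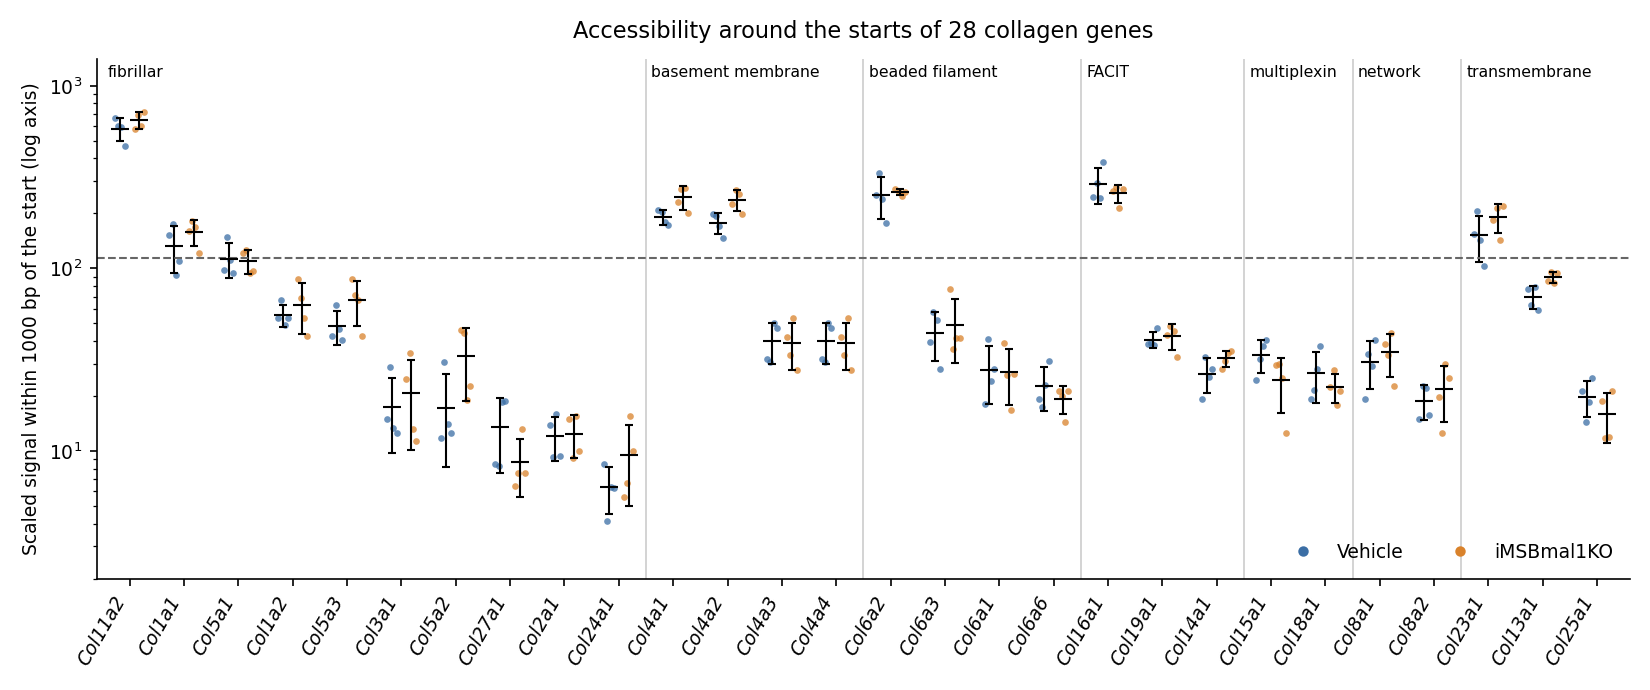
Signal within 1000 bp of the gene start (log axis) for the 28 collagen genes with a region there, grouped by class. Points are libraries, bars the mean and SD of 4 libraries, and the dashed line the median of all protein-coding genes in Vehicle (113). Col11a2 stands highest, and Vehicle and iMSBmal1KO libraries overlap in most genes.

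Among the fibrillar collagens of muscle connective tissue, Col1a1, one of the type I chains, had 152, 176, 92.1 and 109 in Vehicle replicates 1 to 4. Its partner Col1a2 had 53.3, 66.8, 48.9 and 53.2. The 4 Col1a1 values all lay above the 4 of Col1a2. The type V chains Col5a1 and Col5a2, which take part in starting fibrils, had 113 ± 24.6 and 17.3 ± 9.09, and the third type V chain, Col5a3, had 48.1 ± 10.0. Col3a1, the type III chain, had 14.9, 28.8, 13.3 and 12.5, so that Col3a1 and Col5a2 did not differ beyond their spread. Col27a1 had 13.5 ± 5.90, Col2a1, the cartilage collagen, 12.1 ± 3.32, and Col24a1 6.31 ± 1.80. Col11a1 had no region in its window. Within the class the starts thus ran from 582 down to no region, and Col27a1, Col2a1 and Col24a1 lay at its low end with Col3a1 and Col5a2.

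Among the 6 type IV genes, which lie as 3 head-to-head pairs, Col4a1 and Col4a2 shared 1 region over both starts, chr8:11312351-11313029, listed under Col4a2 alone. Their transcripts overlap by 22 bases. The stretch chr8:11312802-11312831 (plus strand), shown for this shared start, carries the overlap in capitals.
Col4a1 and Col4a2: ggcAGTGCGCGGGCGGCGTCTCCAAgggga
Col4a3 and Col4a4, chains of specialised basement membranes, shared all regions of their windows and had 40.0 ± 10.0 in Vehicle. The X-linked Col4a5 and Col4a6 had no region there. The type IV starts were thus ordered by gene pair, with Col4a1 and Col4a2 above Col4a3 and Col4a4 in every Vehicle library. In type VI, Col6a2 had 253, 334, 238 and 178, while Col6a1 on the same chromosome had 27.9 ± 9.73 and Col6a3 44.3 ± 13.2. The multiplexins, basement membrane collagens with long non-collagenous ends, were low, with 33.6 ± 7.08 at Col15a1 and 26.6 ± 8.19 at Col18a1.

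The order of the fibrillar and the basement membrane class in Vehicle depended on how starts were counted. With promoters as the table annotates them (regions of a gene within 1000 bp of any of its listed transcript starts, of unequal total length), the median over 11 fibrillar genes exceeded that over 6 basement membrane genes by 1.47, 2.11, 1.21 and 0.85 on the log2(signal + 1) scale, a mean of 1.41 ± 0.53 (SD). In the windows of equal length the difference was -1.05, 0.00, -1.40 and -1.28, a mean of -0.93 ± 0.64. It was the other way round in each Vehicle library but replicate 2. It was also the other way round, -1.37 ± 0.13, when types I, III and V were set against Col4a1 and Col4a2 with the annotated promoters, and -1.71 ± 0.18 in the windows. Per kb of region over all regions it was 0.31 ± 0.15. In iMSBmal1KO the difference with annotated promoters was 2.03 ± 0.42, and that in the windows was -0.30 ± 0.81. The basement membrane median in the windows was that of the window regions Col4a3 and Col4a4 share. No order of the 2 classes held across these definitions, and the genes of a class are not replicates.

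Most collagen signal lay far from starts. Introns held 67.0% ± 0.94 of the signal of collagen regions in Vehicle, against 21.7% ± 0.92 for all protein-coding genes, and regions within 1000 bp of a listed start held 18.2% ± 0.91 against 62.9% ± 1.77. The 4 Vehicle libraries of each set did not overlap in either share. The strongest region of the gene lay within 1000 bp of a listed start in 9 of 42 collagen genes (21.4%) and in 66.0% of protein-coding genes, and over 10000 bp away in 23 (54.8%) against 19.9%. Collagen genes are long, with a median of 118 kb against 23.7 kb, and the part of length in these shares was not tested. The share in introns was computed for fibrillar, basement membrane, beaded filament, fibril-associated and membrane-spanning collagens and multiplexins. It ran from 23.1% ± 3.35 in beaded filament collagens to 89.7% ± 1.66 in the multiplexins. In beaded filament collagens, regions outside introns and over 1000 bp from a listed start held 53.9% ± 3.29. Among these was a single Col6a3 region with 624 ± 130 in Vehicle.

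**Figure D3:**
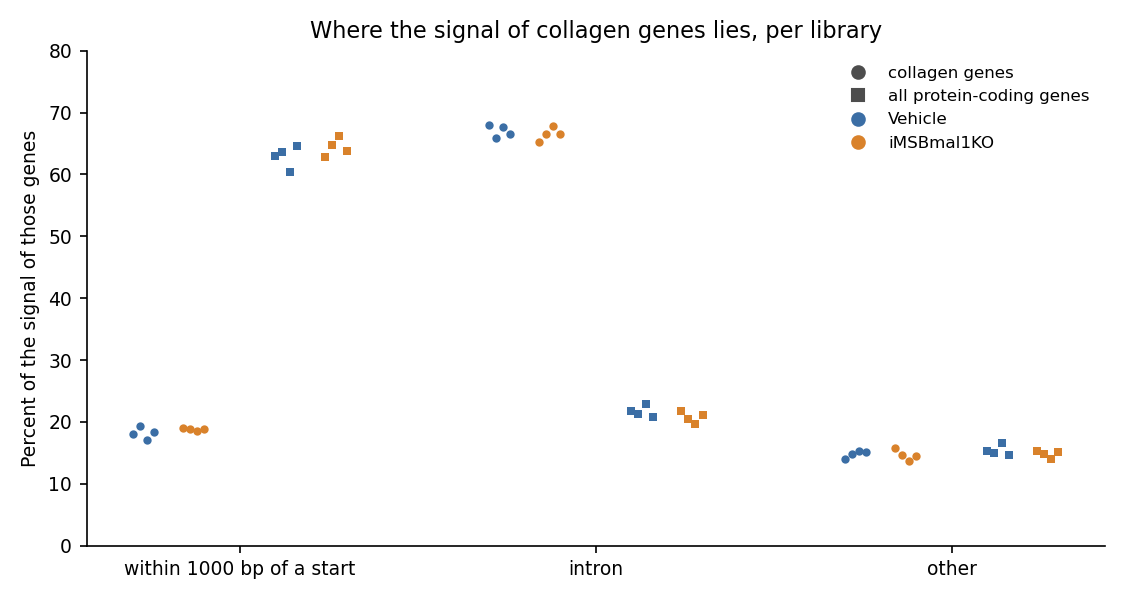
Percent of the signal (y axis) within 1000 bp of a listed start, in introns, and elsewhere, for collagen genes (circles) and all protein-coding genes (squares), with 1 point a library. Introns hold 67.0% on average for collagens and 21.7% for all genes in Vehicle.

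The strongest single region was in Col6a3, in coding exon 37, chr1:90775668-90776148, 67823 bp from the nearest listed start, with 691, 646, 724 and 435 in Vehicle. It carried 68.2% of the signal of the gene. Col13a1, a membrane-spanning collagen of the neuromuscular junction, had 485 ± 109 in intron 1 (chr10:61965301-61965940). Col4a2, the gene with the most regions (123), had its strongest in intron 3 (chr8:11348725-11349058), with 397 ± 76.5. Col15a1 had 364 ± 64.6 in intron 7 and Col27a1 313 ± 28.9 in intron 14. In Col4a6 a single region in intron 3, chrX:141276529-141276714, held 87.0% of the signal, with 140, 156, 130 and 156 in Vehicle, while its start had none. Over all regions, Col4a2, Col27a1, Col13a1, Col5a1 and Col15a1 together held 48.9% of collagen signal. Collagen regions took 0.132% ± 0.008 of nuclear signal in Vehicle and 0.125% ± 0.011 in iMSBmal1KO, values that overlapped.

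The libraries differed at some fibrillar starts in a way that the groups did not follow. At Col5a2 the signal was 30.8 in Vehicle replicate 2 and 45.8 and 44.3 in iMSBmal1KO replicates 1 and 2, and from 11.7 to 22.6 in the other 5 libraries. The same 3 libraries were highest at the starts of Col1a2, Col3a1 and Col5a1, and so in 4 of 10 fibrillar windows with a region. They were also highest in the summed windows of 7 fibro-adipogenic markers (Pdgfra, Dcn, Lum, Ly6a, Pi16, Cd34 and Gsn), with 391 in Vehicle replicate 2, 406 and 419 in iMSBmal1KO replicates 1 and 2, and 239 to 275 elsewhere. They were the 3 highest in 3 of the 7 windows taken singly, those of Pdgfra, Dcn and Gsn, and not in those of Lum, Ly6a, Pi16 and Cd34. None of the 7 was without a region. The same 3 libraries were highest in 22.8% of 13210 protein-coding windows and in 5 of 28 collagen windows, so the pattern was not limited to these genes, and its source was not tested.

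The comparison of iMSBmal1KO with Vehicle asks which collagen regions differ after the induced knockout. No collagen region, gene or promoter passed an adjusted p of 0.05 in limma (log2(signal + 1), group only, all features fitted together). Of the 298 collagen regions with enough signal to test, in 36 genes, 0 were called, where 0.0881% of all 124901 tested regions were. The smallest adjusted p was 0.0513. The other 986 collagen regions, among them all those of Col2a1, Col4a5, Col6a4, Col9a2, Col11a1 and Col28a1, held too little signal to test. The same held for the 42 genes on summed signal (0 called, 0.13% of all genes) and for the 33 promoters tested (0 called, 0.079% of all promoters).

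At an unadjusted p under 0.05, 22 collagen regions were higher and 12 lower, or 7.38% and 4.03%, against 6.59% and 2.63% of all tested regions. That split depended on the scaling, since trimmed-mean factors and abundance-dependent loess each gave 17 higher and 23 lower (5.70% and 7.72%). All regions were balanced as well in those fits, with 4.85% higher and 4.93% lower under trimmed-mean factors and 4.90% and 5.22% under loess. Without Vehicle replicate 2 it was 36 higher and 12 lower (12.1% and 4.03%), beside 10.8% and 3.07% of all regions. The groups did not overlap in 14 regions that were higher and 8 that were lower, or 4.70% and 2.68%, against 3.62% and 1.87% of all. The median log2 difference of collagen regions was 0.07, and that of all regions was 0.12. Loess moved the latter to 0.01 and the collagen median to -0.05, so that the collagen median stayed below that of all regions under both. That did not hold in every fit: both medians were 0.095 with limma-voom and 0.037 without Vehicle replicate 4. The shares of higher regions were close to those of all regions, and the share of lower ones was 4.03% beside 2.63%.

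By class, the type IV regions with a small p lay mostly on the higher side. Of 60 basement membrane regions, 12 were higher (beside 6.59% of all regions) and 1 lower at an unadjusted p under 0.05, and leaving out each library in turn gave 8 to 15 higher, with 8 without Vehicle replicate 3, iMSBmal1KO replicate 1 or iMSBmal1KO replicate 2. Of 95 fibrillar regions, 5 were higher (5.26%) and 8 lower (8.42%, beside 2.63% of all regions). Of these 8, 7 were in Col27a1 and 1 in Col5a3. Leaving out each library gave 3 to 9 fibrillar regions higher and 5 to 10 lower. There were 9 higher without Vehicle replicate 2, 3 higher without iMSBmal1KO replicate 2 and 5 lower without Vehicle replicate 1. The class medians were 0.14 and -0.08, beside 0.12 for all regions, so that the median type IV region did not stand apart. The sign of the fibrillar median was not stable: leaving out Vehicle replicate 3 gave 0.02, leaving out iMSBmal1KO replicate 4 gave 0.01 and the stricter filter gave 0.12, each below the median of all regions in the same fit. Col4a1 and Col4a2 together gave 10 higher and 0 lower of 52 regions, and leaving out each library gave 7 to 13 higher and 0 lower, except for 1 lower without iMSBmal1KO replicate 1, where their median, 0.11, was no longer above that of all regions. Under loess the pair gave 7 higher, and the fibrillar regions 4 higher and 16 lower, beside 4.90% higher and 5.22% lower of all regions. Of those 16 lower regions 10 were in Col27a1. The difference between the classes was not tested, and regions of 1 gene share its locus.

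**Figure D4:**
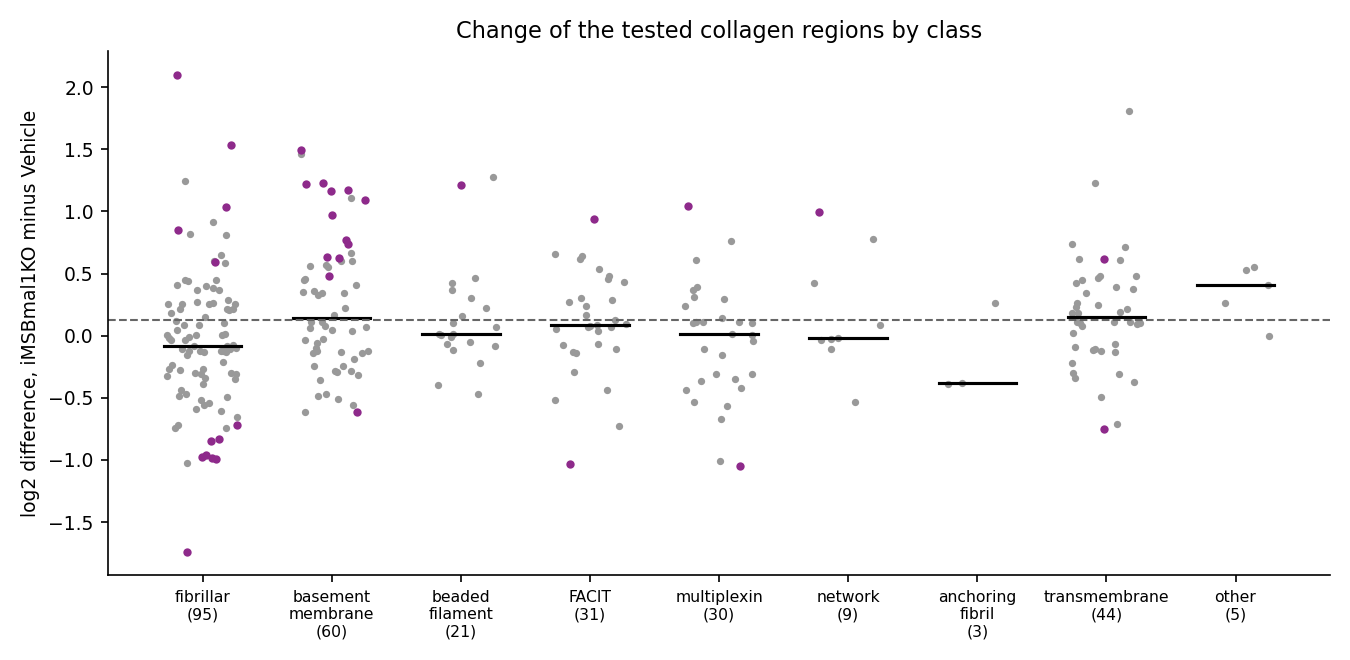
Log2 difference between iMSBmal1KO and Vehicle (y axis) of each of the 298 tested collagen regions by class, with the number of regions in brackets; FACIT are fibril-associated collagens. Purple points have an unadjusted p under 0.05, black bars are class medians and the dashed line is the median of all tested regions (0.12). The 12 basement membrane regions stand out upward and 8 fibrillar regions downward, 7 of these 8 in Col27a1.

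The smallest p of any collagen region was in intron 9 of Col5a1, chr2:27954203-27954381, 67778 bp from the start. It had 19.2, 20.5, 22.2 and 12.5 in Vehicle and 50.5, 80.3, 58.4 and 37.6 in iMSBmal1KO. All 4 iMSBmal1KO libraries lay above all 4 Vehicle libraries. The log2 difference was 1.53 ± 0.30 (SE), with an adjusted p of 0.0513 in limma, a value that fell to 0.0308 without Vehicle replicate 4. Each of the other 7 fits that left out a library missed the threshold, at 0.0537 to 0.302. The region next to it, chr2:27953954-27954192, was chosen after its values were seen. It had 114, 116, 130 and 71.9 against 220, 254, 209 and 192, again without overlap, at a log2 difference of 1.04 ± 0.22 and an adjusted p of 0.102 (limma). The largest log2 difference of any tested collagen region, 2.10, also lay in Col5a1, in intron 4 (chr2:27932107-27932285), with 11.7, 9.25, 9.53 and 0 against 18.4, 44.3, 20.3 and 23.8 and an adjusted p of 0.472 (limma). It was chosen after its values were seen, and Vehicle replicate 4 held 0 reads there. In Col5a1 as a whole 4 of 36 tested regions were higher and 0 lower at an unadjusted p under 0.05, beside 6.59% and 2.63% of all regions, while its summed signal was 1544 ± 190 in Vehicle and 1695 ± 185 in iMSBmal1KO. Its start window was 113 ± 24.6 and 109 ± 16.2.

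Type VI and type IV genes gave the next higher regions. In Col6a6, a chain of type VI collagen found in skeletal muscle, the region chr9:105819304-105819583, which the table places in a 5' UTR exon 8577 bp from a start, had 54.4, 91.4, 58.5 and 34.4 in Vehicle and 158, 129, 125 and 118 in iMSBmal1KO. The groups were separate, with a log2 difference of 1.21 ± 0.27 and an adjusted p of 0.106 (limma). The adjusted p was 0.0283 without Vehicle replicate 2 and 0.0663 to 0.328 without any of the other libraries. In Col4a1 the region chr8:11249752-11249895, also placed in a 5' UTR exon, had 18.1, 18.5, 20.3 and 34.4 against 81.8, 46.0, 45.3 and 46.4. Its log2 difference was 1.23 ± 0.30 at an adjusted p of 0.174, and 1.44 at 0.0195 without Vehicle replicate 4. Leaving out any other library gave an adjusted p from 0.171 to 0.447. A region beside an inner listed start of Col4a1, chr8:11279518-11279620, named after its values were seen, had 16.0, 16.4, 5.72 and 3.13 against 27.0, 22.6, 25.0 and 28.9. Vehicle replicate 4 held 1 read there.

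In Col4a2, intron 10, the region chr8:11419724-11419845 had 15.6 ± 3.36 against 31.7 ± 7.92, with an adjusted p of 0.410. In Col4a4, intron 44, the region chr1:82461319-82461457 had 10.0 ± 4.79 against 23.3 ± 8.72, with an adjusted p of 0.441. The region over the shared start of Col4a1 and Col4a2 had 168, 162, 142 and 125 in Vehicle and 196, 243, 230 and 168 in iMSBmal1KO. The lowest iMSBmal1KO value lay just under the highest Vehicle value there. Its log2 difference was 0.48 ± 0.21, with an adjusted p of 0.518 (limma).

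Of the 12 lower collagen regions 7 were in Col27a1, which encodes a fibrillar collagen best known from cartilage. Of its 28 tested regions 7 were lower and 0 higher at an unadjusted p under 0.05, beside 2.63% lower and 6.59% higher of all regions. Leaving out each library gave 4 to 7 lower, where 1.96% to 3.40% of all regions were lower. There were 4 without Vehicle replicate 1 or iMSBmal1KO replicate 2, and the share was not tested. The smallest p was in intron 4, chr4:63232533-63232675, with 39.4, 42.1, 24.1 and 37.5 in Vehicle and 9.42, 9.20, 4.77 and 21.3 in iMSBmal1KO. All 4 iMSBmal1KO libraries lay below all 4 Vehicle libraries. Its log2 difference was -1.74 ± 0.38 at an adjusted p of 0.102 (limma). It was -2.09 at 0.0398 without iMSBmal1KO replicate 4, and leaving out any other library gave an adjusted p from 0.0697 to 0.376. In intron 2 the region chr4:63221614-63221702, named after its values were seen, had 56.5, 52.4, 33.0 and 40.6 against 27.0, 20.9, 21.5 and 20.1. The summed signal of Col27a1 was 1734 ± 161 and 1512 ± 67.0, with an adjusted p of 0.609.

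Outside Col27a1 the lower regions were single regions of a gene. In Col15a1, intron 2, the region chr4:47224703-47224862 had 19.2 ± 10.4 against 8.01 ± 1.23, and in Col20a1, coding exon 9, chr2:180996643-180996773 had 14.4 ± 1.91 against 6.94 ± 2.98. In Col13a1, intron 3, chr10:61911932-61911984 had 20.7 ± 3.77 against 12.3 ± 4.08. The groups were separate in these 3, with adjusted p from 0.473 to 0.533 (limma). At Col20a1 every Vehicle library and no iMSBmal1KO library reached the 0.762 read equivalents per M that the filter asked for. It was tested only through the group where it was high, so its separation came with the filter. At Col15a1 only replicate 1 of iMSBmal1KO reached that limit. The intron 3 region of Col4a6 described above had 67.6, 69.4, 159 and 107 in iMSBmal1KO, where replicate 3 lay above every Vehicle library.

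**Figure D5:**
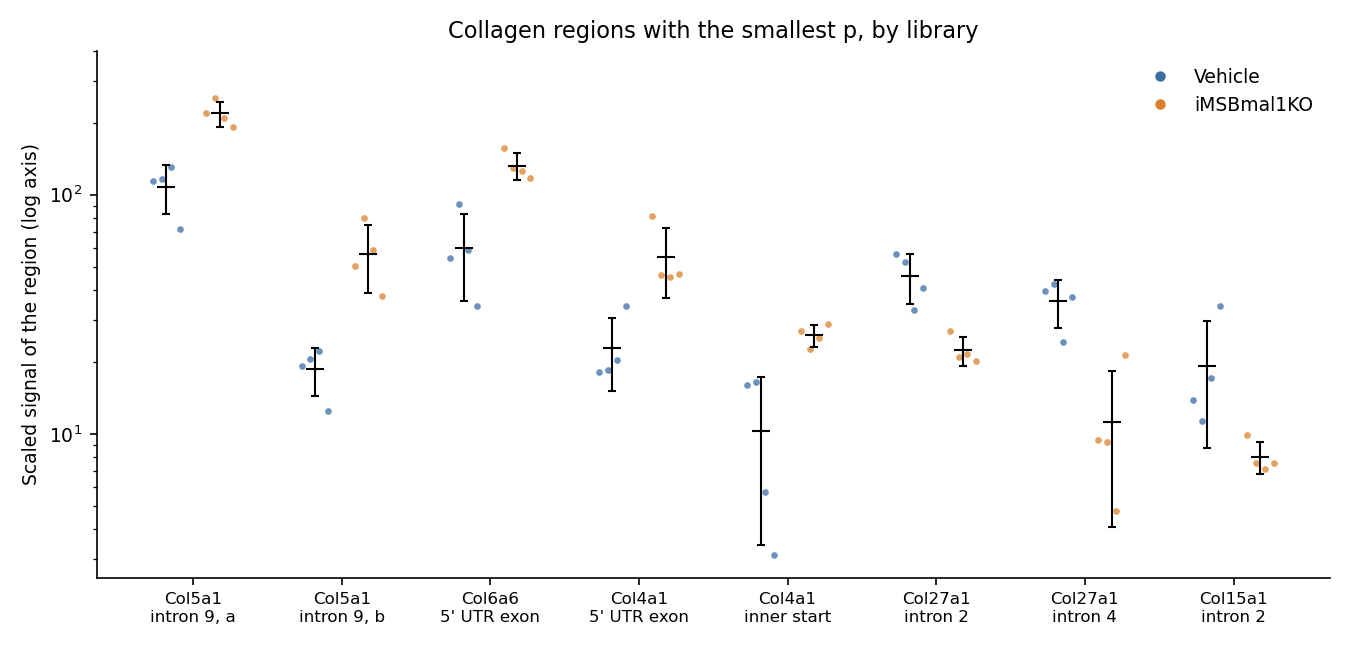
Signal by library (log axis) of 8 collagen regions with small p, with the mean and SD of 4 libraries; a and b are the regions starting at 27953954 and 27954203 in Col5a1, named in this order. Only regions with separate groups were chosen for the figure, so separation is not a finding here, and small-p regions with overlapping groups are left out. Signal is higher in iMSBmal1KO for Col5a1, Col6a6 and Col4a1 and lower for Col27a1 and Col15a1.

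Whole genes differed less. On summed signal 1 of 42 collagen genes was higher and 2 were lower at an unadjusted p under 0.05, against 7.61% and 1.86% of all genes. Col6a6 had 260 ± 39.4 in Vehicle and 347 ± 55.4 in iMSBmal1KO, with a log2 difference of 0.41 ± 0.17. Col4a6 had 167 ± 23.1 and 123 ± 36.7, and Col7a1, the anchoring fibril collagen, 216 ± 52.5 and 158 ± 27.5. Their adjusted p ran from 0.505 to 0.516 (limma). The next smallest p among higher genes belonged to Col19a1 (305 ± 19.5 and 365 ± 36.7), Col3a1 (53.7 ± 24.1 and 72.6 ± 22.3) and Col23a1 (779 ± 120 and 908 ± 34.0). Among lower genes they belonged to Col11a1 (16.8 ± 4.58 and 10.6 ± 5.77) and Col27a1. Col4a2 had 1982, 1925, 1906 and 1754 against 2254, 2192, 1991 and 2016, separate groups at an adjusted p of 0.658.

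Of the 33 collagen promoters tested 1 was higher and 0 were lower at an unadjusted p under 0.05, where 8.67% and 1.43% of all promoters were. It was that of Col5a2, with 17.3 ± 9.09 and 32.9 ± 14.1, a log2 difference of 0.90 ± 0.35 and an adjusted p of 0.468 (limma). The 2 highest iMSBmal1KO libraries and the highest Vehicle library there were the 3 named above for fibrillar starts. Col5a3 (48.1 ± 10.0 and 67.0 ± 18.5) and Col23a1 (169 ± 40.6 and 208 ± 32.6) came next on the higher side. On the lower side were Col27a1 (167 ± 10.7 and 135 ± 13.2), Col9a1 (99.2 ± 27.5 and 84.0 ± 36.0) and Col25a1 (19.8 ± 4.50 and 15.9 ± 4.88). The type I starts differed by less than their spread, with 132 ± 38.4 and 158 ± 25.6 for the window of Col1a1.

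Genes that make, cross-link, bind or degrade collagen were counted on summed signal, where 0.13% of all genes were called. Of 18 biosynthesis genes (such as the prolyl and lysyl hydroxylases and Serpinh1, the collagen chaperone) 0 were called, and 2 (Crtap and Mia2) were higher at an unadjusted p under 0.05, beside 7.61% of all genes. Of 12 genes for processing and cross-linking 1 was called: Loxl4, a lysyl oxidase-like enzyme that cross-links collagen, rose from 190 ± 23.9 to 347 ± 18.5, with a log2 difference of 0.87 ± 0.16 and an adjusted p of 0.0328 (limma). It was called with the replicate block, under 8 of 9 other alternatives to the analysis and without Vehicle replicate 2 or 4. Its adjusted p reached 0.0505 with total read equivalents and 0.0807 to 0.140 without any of the other 6 libraries. Of 9 receptors 0 were called, and 1 (Gp6) was lower at an unadjusted p under 0.05, beside 1.86% of all genes. None of the 6 tested of 10 turnover genes was called, nor any of 10 basement membrane partners such as Lama2, Nid1 and Hspg2. The list medians ran from -0.01 to 0.12, beside 0.11 for all genes and 0.03 for collagen genes.

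Markers of the cell types that whole muscle holds were read the same way, and 0 genes of 8 lists were called, beside 0.13% of all genes. The summed signal of the muscle fibre markers ran from 11413 to 19670 in Vehicle and from 15396 to 18212 in iMSBmal1KO, that of fibro-adipogenic markers from 1985 to 2498 and from 1892 to 2760, that of endothelial markers from 1404 to 1871 and from 1497 to 1801. Of 7 muscle fibre markers 1, the fast myosin Myh4, was higher at an unadjusted p under 0.05, and of 3 tested Schwann cell markers 1, S100b. The other marker lists held no gene past that limit in either direction, where 7.61% of all genes were higher and 1.86% lower. The start windows of the macrophage markers Adgre1, Csf1r and Mrc1, of the satellite cell markers Calcr and Vcam1 and of the pericyte marker Rgs5 held no region, and the Schwann list ran from 222 to 449 in Vehicle and from 410 to 532 in iMSBmal1KO. Tenocyte markers ran from 516 to 733 and from 637 to 759, pericyte and smooth muscle markers from 1229 to 1461 and from 1256 to 1614, satellite cell markers from 558 to 628 and from 624 to 779, and macrophage markers from 391 to 675 and from 424 to 549. The part of cell composition in the collagen values was not tested.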

How the data were processed

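ATAC-seq libraries of 4 Vehicle and 4 iMSBmal1KO samples were described from a single table of regions that the authors deposited, with 1 column of signal a library. Per the submitters' processing notes, Partek, Bowtie2, MACS2 and DESeq2 were used with the builds mm10 and GRCm39; which step used which is not given in the sources used here. RefSeq GRCm38.p6 starts matched the table's coordinates. Starts count from 1, and ends are given 1 base below the table's, whose end minus start equals the length. The deposited signal is not whole; 98.4% to 99.8% of non-zero values were multiples of a step per library within 0.02 reads, which gave the read equivalents. Whole reads are not claimed for the rest.

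The test was limma-trend with robust moderation on log2(signal + 1) (limma 3.58.1, R 4.3.3), with Benjamini-Hochberg adjustment over all features and a threshold of 0.05. Fold differences of weak regions are understated on that scale. Features needed 4 libraries with 0.762 read equivalents per M and 15 in all. Fits ran on regions, on sums per gene and on promoters, and the scripts were tested on simulated data. The table lists each region under 1 gene. Figures were drawn with Python 3.11.15 and matplotlib 3.10.9.

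The members, class lists and pathway lists were chosen with earlier results of these data known. Named were the fibrillar and basement membrane genes, Col6a1, Col6a2, Col6a3, Col15a1 and Col18a1, the 5 regions, 4 genes and 3 promoters with the smallest p in each direction (1 region a gene), and the gene with most regions; others are said to be chosen after values were seen. In the baseline the strongest starts and strongest regions were also chosen after values were seen. Col9a3 and Col10a1 were not analysed here. Columns that matched no sample numbered 0. Alternatives were other scalings, pseudocounts, filters, windows, limma-voom, a replicate block and leaving out each library.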

Additional observations from a re-analysis of the deposited data

Results flagged for a closer look

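In each group of 4 libraries, a value was marked where its gap to the nearest other value took up more of the whole range than Dixon's limit allows. Of 122 groups looked at 11 held such a value, and chance marks about 1 in 20. Of the 11, 4 were of Vehicle replicate 2 at fibrillar genes: Col3a1 had 89.4 summed over its regions (36.9 to 44.8 in the other Vehicle libraries) and 28.8 at its start window (12.5 to 14.9), and Col5a2 had 30.8 at its annotated promoter and the same at its start window (11.7 to 14.0). These stand beside the high fibro-adipogenic marker windows of that library, 391 against 255 to 275, and the part of cell composition was not tested.

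In the Col4a1 region starting at 11249752 Vehicle replicate 4 had 34.4 (18.1 to 20.3 in the others) and iMSBmal1KO replicate 1 had 81.8 (45.3 to 46.4). At the Col19a1 start window Vehicle replicate 4 had 46.9 (38.1 to 39.0). At the Col6a3 start window iMSBmal1KO replicate 1 had 77.0 (36.0 to 41.7), and in the Col15a1 region starting at 47224703 it had 9.84 (7.16 to 7.53). At the Col27a1 start window iMSBmal1KO replicate 3 had 13.1 (6.42 to 7.53). In the Col13a1 region starting at 61911932 iMSBmal1KO replicate 4 had 6.27 (13.7 to 15.1).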

How the results depend on the processing

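Collagen genes and promoters called stayed at 0 under every alternative run, with 0 to 0 on leaving out a library. Collagen regions called were 0 with the deposited scaling, 4 with trimmed-mean factors, 4 with loess, 5 with limma-voom, 2 with no filter, 2 with the stricter filter, 1 with a pseudocount of 5 and 1 with abutting regions merged. All regions called rose too, from 110 (0.0881%) to 278 (0.223%) with trimmed-mean factors and 342 (0.274%) with loess and with limma-voom. The share of all regions called was 0.0398% with no filter and 0.405% with the stricter filter. It was 0.130% with a pseudocount of 5 and 0.105% with abutting regions merged. Leaving out a library gave 0 to 2: Vehicle replicate 4 gave 2 (in Col5a1 and Col4a1), Vehicle replicate 2 gave 1 (Col6a6) and iMSBmal1KO replicate 4 gave 1 (Col27a1). Of all regions 0.225%, 0.113% and 0.0456% were called, in the same order. All the regions called in any of these fits lay in Col5a1, Col27a1, Col6a6 and Col4a1, apart from the fit of merged regions, whose members were not listed. The replicate block gave 1 region, where 0.0801% of all regions were called, and 0 genes and promoters. Of the same-numbered pairs of libraries 1 of 4 had a correlation of deviations over 0.1 (-0.06 to 0.14), and other pairs ran from -0.19 to 0.25. With 4 libraries a group these values cannot exclude that the replicate numbers pair the libraries.

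The difference between fibrillar and basement membrane promoters, 1.41, was 0.31 per kb, 0.33 with Col15a1 and Col18a1 counted as basement membrane and 0.29 without genes lacking a promoter region. It reversed to -1.37 for types I, III and V against Col4a1 and Col4a2, to -0.93 and -1.08 in windows of 1000 and 500 bp around gene starts and to -1.71 with both changes; leaving out a Vehicle library gave 1.18 to 1.60. Alternatives with gene-start windows, with genes lacking a region left out, and the class counts by setting were added after values were seen. Of 581 alternative values of 32 named regions, genes and promoters, 580 kept their direction and 23 moved past the threshold, while 7, all of Loxl4, fell back across it. The Col9a1 promoter turned to 0.014 with a 500 bp window. Most of these items were picked for a small p in the same libraries, so a kept direction was likely beforehand and says little. Count-based tests on whole reads were planned and not run, because not every value was a whole number of reads. At 4.31 M read equivalents, regions with a few reads in Vehicle replicate 4 are known with little precision, which covers counting error only.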
